A study of Mus musculus with 107 samples.

Results

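The 12 libraries described here came from NPC of the first derivation at passage 5, passage 15 and passage 30 (NPC P5, NPC P15 and NPC P30, n = 4 each), of 107 samples in the series. They were chosen by their sample titles alone. All were neural progenitor cells (NPC) grown as adherent cultures from 1 female mouse ESC line that carries RiboTag, an HA-tagged form of the ribosomal protein Rpl22 switched on by a Cre allele, so every group shared the tag, the line and the derivation. The 3 groups shared retinoic acid and purmorphamine, a Hedgehog agonist, during neural induction, and EGF and FGF at 100 ng/mL during expansion. RNA bound to HA-tagged ribosomes was pulled down with an antibody to HA and sequenced, so the values are levels of ribosome-bound RNA. Passage was the labelled difference between the groups. Each passage was 1 stage of 1 culture, so passage and any other difference between the cultures at collection cannot be told apart, and the labels do not say whether replicates were separate flasks. The p-values therefore measure the spread between these libraries.

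Neural progenitors divide under EGF and FGF and keep the capacity to form astrocytes, oligodendrocytes and neurons. Long culture is known to select for faster growth and can bring changes in DNA methylation and in chromosome number. The question here was which ribosome-bound RNAs changed steadily with passage and which set 1 culture apart from the other two.

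The gene counts of a library summed to between 30473157 and 147764968, and 15047 of 27179 listed genes passed the filter on low counts. The defining markers of neural progenitors were present at every passage. *Sox2*, a transcription factor of neural stem cells, was at 318 to 362 CPM (a gene's counts scaled to the library's total) in NPC P5, 331 to 341 CPM in NPC P15 and 330 to 362 CPM in NPC P30, and no contrast called it. *Pax6*, another progenitor factor, lay between 31.1 and 48.5 CPM in all 12 libraries and was not called. The 7 progenitor markers summed to 5408 to 5707 CPM in every library. The 4 pluripotency markers *Pou5f1*, *Nanog*, *Zfp42* and *Dppa4* together stayed at or below 1.71 CPM, the 4 myeloid or endothelial markers at or below 0.663 CPM and the 5 endoderm or epithelial markers at or below 3.33 CPM. Neuron markers summed to 27.4–39.4 CPM in NPC P5, at most 21.9 CPM in NPC P15 and 104–108 CPM in NPC P30. Most of that sum was *Tubb3*, a tubulin of neurons (12.1 to 13.9 CPM in NPC P15, 102 to 106 CPM in NPC P30), while *Dcx* and *Stmn2* stayed below 1 CPM. The remaining neuron marker, *Rbfox3*, went the other way, with a log2FC of −3.01 from NPC P15 to NPC P30. In such bulk samples fewer cells of a type and less RNA per cell cannot be told apart.

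The passages were well separated by their transcriptomes. On 9800 genes, the first principal component held 45.4% of the variance and set NPC P30 apart, and the second held 37.9% and set NPC P15 apart from NPC P5. Pearson's r of log2 CPM across those genes was 0.986 to 0.994 within a passage and 0.925 to 0.943 between passages, given as a description because genes are not independent replicates. Differentially expressed genes (DEGs, edgeR quasi-likelihood F test, Benjamini-Hochberg adjusted p below 0.01) numbered 5083 between NPC P15 and NPC P5, which is 33.8% of genes tested (2504 higher, 16.6%, and 2579 lower, 17.1%). From NPC P15 to NPC P30 there were 4598 DEGs, or 30.6% (2252 higher, 15.0%, and 2346 lower, 15.6%). Between NPC P30 and NPC P5 there were 5069 DEGs, or 33.7% (2455 higher, 16.3%, and 2614 lower, 17.4%). Most changes were small, with a median absolute log2FC among DEGs of 0.55, 0.54 and 0.53 in that order, and 992, 1089 and 1068 DEGs (6.59%, 7.24% and 7.10%) had an absolute log2FC of at least 1.

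Steady change was the less frequent pattern. Genes that were DEGs in the same direction over both intervals numbered 269 for a rise (1.79% of genes tested) and 218 for a fall (1.45%). Early steps, in which NPC P15 and NPC P30 both differed from NPC P5 and the 95% interval of their own log2FC lay within 1.5-fold, numbered 681 up (4.53%) and 890 down (5.91%). Late steps, in which NPC P30 differed from both earlier passages and these lay within 1.5-fold of each other, numbered 455 up (3.02%) and 622 down (4.13%). Genes that set NPC P15 apart from both other passages in the same direction numbered 1076 high (7.15%) and 1039 low (6.91%). A further 2487 genes (16.5%) had a DEG call and met none of these rules, and 7310 had no call. Thus 2115 genes were highest or lowest in the middle passage, against 487 that moved steadily, although the numbers of all patterns depend on their rules. Both of these groups needed a call in each interval, and the intervals share the NPC P15 libraries with opposite sign. Their difference in size was not tested against an expected number.

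**Figure D1:**
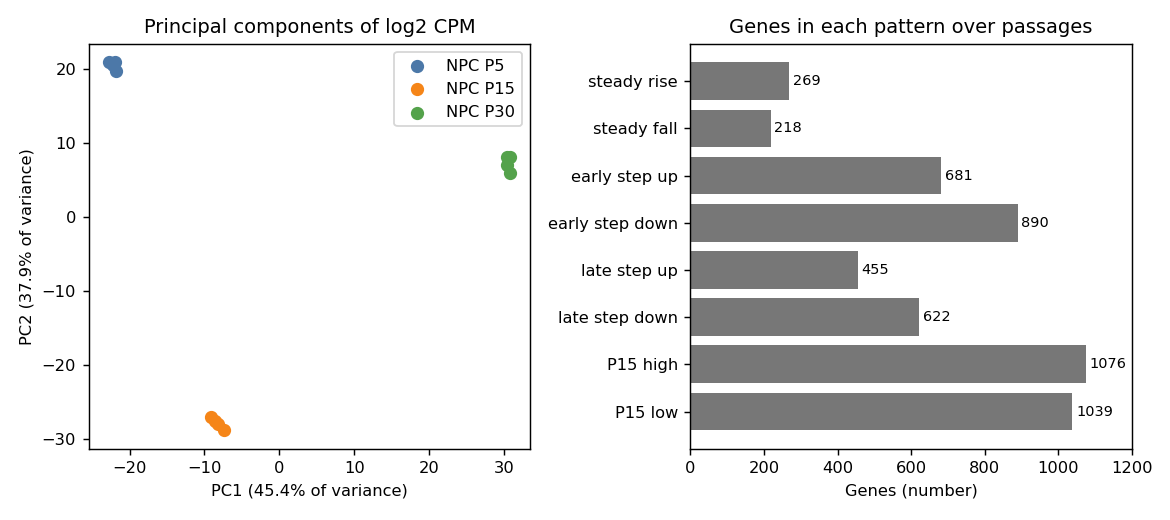
Left, first and second principal components of log2 CPM for the 12 libraries, 1 point per library. Right, number of genes in each of the 8 patterns, as bars. The libraries form 3 tight groups by passage, and the bars for genes high (1076) or low (1039) in NPC P15 are the longest.

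Steady falls were led by *Rhox5*, an X-linked homeobox gene of the reproductive lineage that is commonly held silent in somatic cells by DNA methylation (chromosome X, 37754608 to 37808878, mm10). Its level was 865, 825, 848 and 887 CPM in the NPC P5 libraries, 63.2, 72.8, 70.1 and 74.4 CPM in NPC P15, and 2.35, 2.40, 2.80 and 3.63 CPM in NPC P30. The groups did not overlap, and the log2FC was −3.60 (SE 0.07, adjusted p = 1.4e-21, edgeR) over the first interval and −4.69 (SE 0.09, adjusted p = 3.9e-22) over the second. *Apln*, which encodes the secreted peptide apelin, fell from 655 ± 20.2 (SD, n = 4) to 161 ± 6.22 and then 70.9 ± 5.81 CPM. *Igf2bp3*, an oncofetal RNA-binding protein, fell from 29.3 ± 4.00 to 6.24 ± 1.54 and 2.27 ± 0.511 CPM. The other leading genes in this direction were *Rcan2*, a calcineurin regulator, at 49.4 ± 4.96, 6.57 ± 1.65 and 3.90 ± 1.07 CPM, and *Psrc1*, a spindle protein, at 100 ± 6.69, 69.6 ± 6.19 and 22.6 ± 2.65 CPM. For *Rcan2* the second interval was not called when the passages were fitted in pairs (adjusted p = 0.028, edgeR).

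The steady rises with the largest change from NPC P5 to NPC P30 were *Tlr3*, *Irgm1*, *Helz2*, *Ankrd34c* and *Hoxa9*. *Tlr3*, a receptor for double-stranded RNA, was at 12.6, 12.3, 12.8 and 12.2 CPM in NPC P5, 31.6, 28.4, 33.1 and 36.5 CPM in NPC P15, and 305, 312, 318 and 319 CPM in NPC P30. The 3 groups lay far apart, with a log2FC of 1.39 (SE 0.07, adjusted p = 2.5e-14, edgeR) and then 3.23 (SE 0.07, adjusted p = 3.5e-21). *Irgm1*, an interferon-inducible GTPase, rose from 8.33 ± 1.18 to 22.9 ± 2.62 and 200 ± 6.64 CPM, and *Helz2*, a nuclear receptor co-activator, from 0.492 ± 0.346 to 8.13 ± 1.12 and 31.5 ± 9.25 CPM. *Ankrd34c* was at 0.693 ± 0.403, 1.55 ± 0.202 and 17.9 ± 2.43 CPM. Its first interval lost its call without replicate 1 of NPC P5 (adjusted p = 0.013, edgeR) or replicate 3 of NPC P15 (adjusted p = 0.013), and in pairwise fits (adjusted p = 0.18). Among the 487 steady genes, the rate per passage differed between the intervals for 159 at an adjusted p below 0.01, of which 130 moved faster from NPC P5 to NPC P15 and 29 faster from NPC P15 to NPC P30. *Tlr3* (adjusted p = 5.1e-07, edgeR) and *Irgm1* (adjusted p = 0.0013) were faster in the later interval and *Apln* (adjusted p = 2.8e-12) in the earlier one.

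Early steps upward included matrix, receptor and cytoskeletal genes. *Vldlr*, a lipoprotein and reelin receptor, was at 18.1 to 21.2 CPM in NPC P5, 101 to 108 CPM in NPC P15 and 81.1 to 103 CPM in NPC P30, so the later passages overlapped with each other and not with the earliest. Its log2FC was 2.46 (SE 0.08, adjusted p = 1.4e-17, edgeR) from NPC P5 to NPC P15. *Fibcd1*, an acetyl-group-binding receptor, was at 3.81 ± 0.858, 24.9 ± 1.95 and 26.0 ± 4.04 CPM, and *Npnt*, the matrix protein nephronectin, at 5.72 ± 1.20, 31.5 ± 3.39 and 31.7 ± 2.87 CPM. *Coro2b*, an actin-binding protein, was at 126 ± 7.13, 447 ± 10.2 and 422 ± 12.2 CPM, and *Tceal1* at 3.02 ± 1.09, 10.2 ± 2.50 and 10.8 ± 1.65 CPM. Early steps downward included *Flnc*, the actin cross-linker filamin C, at 48.5 ± 4.22, 13.8 ± 1.86 and 13.9 ± 1.69 CPM. *Golga7b*, a palmitoylation cofactor, was at 10.8 ± 1.83, 2.67 ± 0.419 and 2.78 ± 0.637 CPM, *Amdhd2*, an enzyme of amino sugar metabolism, at 43.6 ± 1.73, 15.0 ± 2.69 and 18.9 ± 1.76 CPM, and *Rprm*, a cell cycle arrest gene, at 40.8 ± 3.13, 14.3 ± 1.01 and 16.1 ± 0.359 CPM. The level of *Tmem35a*, a chaperone of nicotinic receptors, was nearly the same in every NPC P5 library (64.3 to 64.6 CPM) and lower in all later ones (16.8 to 25.2 CPM).

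Late steps set NPC P30 apart. Of the 5 leading genes that rose, 4 are interferon-inducible: *Ifitm3*, which restricts viral entry, *Xaf1*, *Igtp* and *Trim25*. *Ifitm3* was at 65.3, 55.5, 59.5 and 59.3 CPM in NPC P5, 63.6, 60.6, 76.5 and 67.6 CPM in NPC P15, and 436, 436, 457 and 428 CPM in NPC P30. The earlier passages overlapped and every NPC P30 library stood above them (log2FC 2.67 over the second interval, SE 0.07, adjusted p = 9.2e-20, edgeR). The fifth, *Hs3st1*, a heparan sulfate sulfotransferase, was at 29.5 ± 1.63, 29.1 ± 1.41 and 156 ± 9.33 CPM. Late falls were led by *Ramp1*, a co-receptor of the calcitonin receptor family, at 13.3 to 17.4, 10.1 to 19.3 and 0.927 to 2.76 CPM, and *Nxph1*, a secreted neurexin ligand, at 24.6 ± 1.16, 29.2 ± 2.28 and 6.33 ± 1.33 CPM. *Igf2bp2*, an RNA-binding protein of growing progenitors, was at 43.0 to 47.0, 50.6 to 52.4 and 11.2 to 18.0 CPM, so both earlier groups lay far above the last. *Rgcc*, a cell cycle regulator, was at 24.8 ± 2.27, 21.5 ± 3.83 and 5.51 ± 1.89 CPM, and *Ccn2*, a matrix protein that is a known YAP target, at 15.1 ± 0.923, 14.0 ± 2.25 and 4.11 ± 0.610 CPM.

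A further set of RNAs was high or low in NPC P15 against both other passages of this derivation. *Trap1a*, an X-linked gene of germ cells and tumours that is normally silent in somatic tissue (chromosome X, 139333683 to 139338169, mm10), was at 211, 225, 215 and 213 CPM in NPC P15. In NPC P5 it was at 0.789, 0, 0.684 and 0.826 CPM, which is 58, 0, 55 and 69 counts, and in NPC P30 it had 2, 2, 4 and 2 counts. Nearly all of its RNA was therefore in the middle passage, and because the other groups were at or close to 0 no fold is given. *P2rx3*, an ATP-gated channel, was at 2.32 to 4.06, 85.0 to 102 and 3.22 to 6.50 CPM. *Cox6a2*, a muscle-type subunit of cytochrome oxidase, was at 4.28 ± 0.697, 51.5 ± 2.67 and 7.23 ± 2.08 CPM, and *Gsg1l*, an AMPA receptor auxiliary protein, at 1.95 ± 0.730, 24.4 ± 2.18 and 1.28 ± 0.588 CPM. In the opposite direction, *Mdk*, the heparin-binding growth factor midkine, was at 41.1, 39.4, 41.2 and 41.5 CPM in NPC P5, 0.163, 0.258, 0.232 and 0.0450 CPM in NPC P15, and 2.10, 2.30, 1.48 and 1.68 CPM in NPC P30. *Gpr17*, a receptor of oligodendrocyte precursors, was at 15.7 ± 2.21, 0.228 ± 0.183 and 3.48 ± 0.387 CPM, and *Qrfpr*, a neuropeptide receptor, at 3.94 ± 0.733, 0.447 ± 0.237 and 27.2 ± 4.72 CPM. These 3 genes were lowest in NPC P15 but did not return to a common level on either side of it. Of the 22 genes of the gamma protocadherin cluster, which give neural cells a surface identity through variable exons chosen cell by cell, 7 were called from NPC P5 to NPC P15, 1 higher and 6 lower, a share near the 33.8% of all genes, and 9 were called in no contrast. The leading genes that set NPC P15 apart included 3 members of the cluster. *Pcdhga3* was at 1.45 ± 0.260, 26.4 ± 2.33 and 1.17 ± 0.989 CPM, whereas *Pcdhga11* was at 27.0 ± 1.69, 2.33 ± 0.610 and 36.6 ± 3.01 CPM and *Pcdhgb2* at 15.7 ± 1.33, 1.05 ± 0.612 and 27.4 ± 5.75 CPM. These genes share their constant exons, so reads of those exons could not be assigned to 1 of them.

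**Figure D2:**
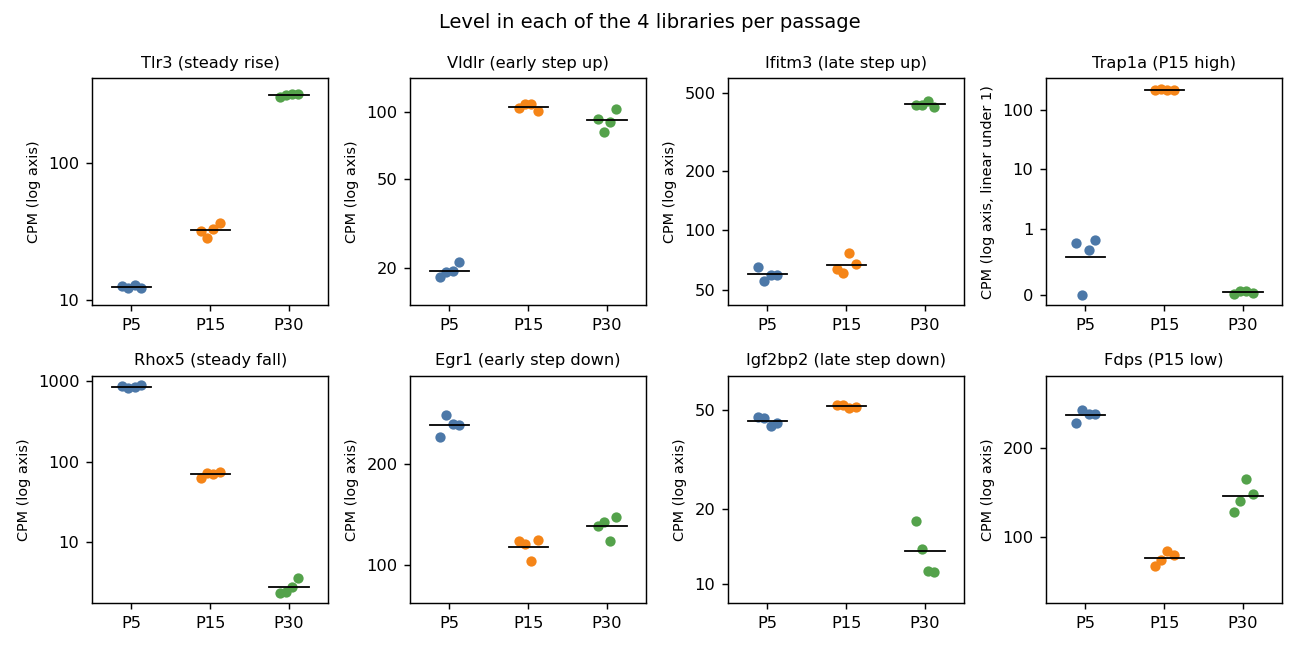
CPM of 1 gene per pattern in each library of NPC P5, P15 and P30 on log axes (for Trap1a linear below 1), with 4 points per passage and a line at the mean. Each gene's libraries of 1 passage lie close together, and Rhox5 falls from a mean of 856 to 70.1 and 2.79 CPM.

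Interferon-stimulated genes were higher in NPC P30. Type I interferon acts through transcription factors that bind a shared promoter element and switch on antiviral and antigen-presentation genes. All 14 genes of the interferon and MHC class I list were tested, and 13 were higher in NPC P30 than in NPC P15 and 13 higher than in NPC P5, against backgrounds of 15.0% and 16.3%, with none lower. The fourteenth, *Oas1a*, had a log2FC of 2.06 and 0.82 and was not called. The list's median log2FC was 2.47 over the second interval and 2.22 from NPC P5 to NPC P30, where the medians of all genes tested were 0.01 and 0.00. From NPC P5 to NPC P15, 6 of the 14 were lower and 4 higher (17.1% and 16.6% of all genes), with a median of −0.44 (all genes −0.01). *Oasl2*, an antiviral enzyme-like protein, was at 22.3, 23.8, 18.7 and 24.1 CPM in NPC P5, 7.89, 9.84, 11.1 and 13.8 CPM in NPC P15, and 384, 395, 378 and 399 CPM in NPC P30. *Isg15*, a ubiquitin-like modifier, was at 8.72 ± 3.11, 2.62 ± 0.898 and 86.1 ± 10.3 CPM. *Ifit1*, which binds foreign RNA, was at 8.59 ± 1.67, 4.57 ± 2.42 and 99.3 ± 3.00 CPM, and its call between NPC P5 and NPC P15 was lost without replicate 4 of NPC P15 (adjusted p = 0.021, edgeR) or replicate 3 (0.016) or 4 (0.017) of NPC P5. *Ifit3* was at 2.19 ± 0.243, 1.47 ± 1.05 and 28.6 ± 2.71 CPM, though reads of near-identical family members may be split or shared.

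*Irf9*, a transcription factor of the pathway added to the text after its values were seen, was at 32.0 ± 2.72, 26.0 ± 3.38 and 134 ± 2.74 CPM. Of the antigen-presentation genes, *Psmb8*, *Tap1*, *B2m* and *H2-D1* were called in both intervals as steady rises, with a log2FC from NPC P5 to NPC P30 of 2.82, 1.63, 1.64 and 2.22. The class I gene *H2-K1* was instead low in NPC P15, with a log2FC of −0.34 and then 2.56. No difference in timing between these genes was tested. *Ifnb1*, which encodes interferon beta and was named after its values were seen, had 0 counts in all 12 libraries. Other interferon genes are not given. Myeloid or endothelial markers, as given above, summed to less than 1 CPM in every library of NPC P30. The cause of the higher levels in NPC P30 was not tested.

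The promoters of several of these genes hold the element read by interferon-activated factors, and the sequences of the 3 members shown in the plot of interferon-inducible genes that hold several matches are printed for that reason. A search for a pair of GAAA half-sites in the same orientation, 2 bases apart, on both strands, over 250 bases before and 50 bases after the start of each gene in RefSeq (GRCm38.p6), found it in 7 of the 13 list members with a promoter (*Ifit1*, *Ifit3*, *Isg15*, *Oas1a*, *Bst2*, *Ifitm3* and *B2m*) and in 3.55% of the promoters of genes tested. Matches are in capitals, overlapping ones run together, and each sequence is the 200 bases before the gene's start, read 5′ to 3′ on the gene's strand.
Ifit1, chr19:34640689-34640888, plus strand: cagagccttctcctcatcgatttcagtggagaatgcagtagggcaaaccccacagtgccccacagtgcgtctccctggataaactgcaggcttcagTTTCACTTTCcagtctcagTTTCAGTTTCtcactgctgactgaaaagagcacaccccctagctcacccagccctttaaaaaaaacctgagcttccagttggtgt
Ifit3, chr19:34583329-34583528, plus strand: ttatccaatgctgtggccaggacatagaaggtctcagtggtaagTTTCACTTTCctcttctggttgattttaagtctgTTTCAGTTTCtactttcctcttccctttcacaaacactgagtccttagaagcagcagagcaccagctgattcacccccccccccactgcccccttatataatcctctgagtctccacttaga
Isg15, chr4:156200819-156201018, minus strand: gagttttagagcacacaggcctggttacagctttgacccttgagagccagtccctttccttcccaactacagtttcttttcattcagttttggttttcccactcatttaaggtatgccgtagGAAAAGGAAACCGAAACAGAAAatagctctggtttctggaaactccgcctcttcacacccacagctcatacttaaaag
The matches lay 104 and 85 bases before the start in *Ifit1*, 156 and 122 bases in *Ifit3*, and 78, 72 and 66 bases in *Isg15*. A match describes letters in this window and was not tested for binding.

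**Figure D3:**
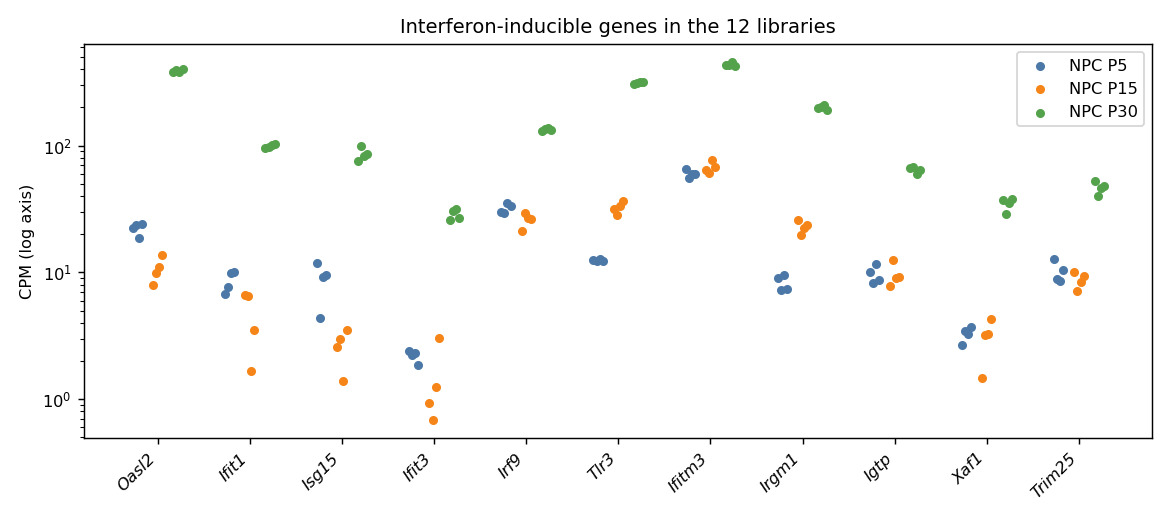
CPM of 11 interferon-inducible genes on a log axis, 1 point per library, with the 3 passages side by side for each gene. The genes led a pattern or their list by size of change, except Irf9, which was added after its values were seen. In each of these chosen genes all 4 NPC P30 libraries lie above all 8 earlier ones. For Oasl2 they lie at 378 to 399 CPM against 7.89 to 24.1 CPM. The separation follows in part from this choice of genes.

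Genes of the amino acid and ER stress response were higher after NPC P5. In this response the factor Atf4 switches on genes of amino acid supply and of stress signalling when charged tRNAs or protein folding fall short. Of 14 genes listed, all tested, 11 were higher and 0 lower in NPC P15 than in NPC P5 by edgeR, where 16.6% of all genes were higher and all 14 had a log2FC above 0, with a median of 0.97. In NPC P30 9 were higher and 1 lower than in NPC P5 (median 0.92), while from NPC P15 to NPC P30 4 were higher and 4 lower (median 0.03). The shares over all genes were 16.3% higher and 17.4% lower in the former contrast, and 15.0% and 15.6% in the latter. *Chac1*, a glutathione-degrading enzyme, was at 8.80, 8.50, 8.03 and 10.9 CPM in NPC P5, 36.1, 46.5, 47.1 and 33.8 CPM in NPC P15, and 134, 142, 131 and 137 CPM in NPC P30. It climbed over both intervals with no overlap, as did *Slc7a11*, the cystine transporter, at 6.35 ± 1.01, 21.7 ± 3.46 and 60.9 ± 5.72 CPM. *Trib3*, a pseudokinase that feeds back on Atf4, was at 9.47 ± 2.55, 33.8 ± 2.78 and 85.7 ± 7.54 CPM. *Atf5*, a related factor, behaved otherwise and peaked in the middle passage, at 231 ± 5.91, 1394 ± 16.1 and 482 ± 19.5 CPM. The chaperone gene *Hspa5* had a log2FC of 0.01 and then −0.25, and the serine synthesis gene *Phgdh* one of 0.02 and −0.05 with no call.

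The element TGATGNAA, a core of the sites read by Atf4 with its partners, was found on either strand in 5 of the 14 promoters of this list (*Trib3*, *Asns*, *Chac1*, *Slc7a11* and *Herpud1*) and in 2.73% of the promoters of genes tested. The 2 steady rises with a match before the gene's start are printed, again as the 200 bases before it with matches in capitals.
Chac1, chr2:119351042-119351241, plus strand: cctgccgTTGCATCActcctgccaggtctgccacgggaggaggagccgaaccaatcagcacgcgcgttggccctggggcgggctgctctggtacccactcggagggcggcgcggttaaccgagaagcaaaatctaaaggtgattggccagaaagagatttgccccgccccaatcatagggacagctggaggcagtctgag
Slc7a11, chr3:50443614-50443813, minus strand: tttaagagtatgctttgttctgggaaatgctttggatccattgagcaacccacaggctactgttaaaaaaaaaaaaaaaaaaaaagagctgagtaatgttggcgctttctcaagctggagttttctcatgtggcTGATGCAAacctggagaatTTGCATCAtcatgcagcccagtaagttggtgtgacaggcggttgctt
The match in *Chac1* lay near the far end of the window, and those in *Slc7a11* lay 66 and 47 bases before the start.

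Most of the listed genes of the cell division cycle stepped down early. Of 28 listed and tested, 18 were lower and 1 higher in NPC P15 than in NPC P5 (17.1% and 16.6% of all genes), with a median log2FC of −0.42. In NPC P30 18 were lower and 2 higher than in NPC P5 (17.4% and 16.3% of all genes, median −0.30). From NPC P15 to NPC P30 5 were called, against 30.6% of all genes, 4 of them higher (median 0.09), and 16 of the 28 met the rule for an early step down. *Cdc20*, which triggers anaphase, was at 511 to 528 CPM in NPC P5, 232 to 247 CPM in NPC P15 and 244 to 268 CPM in NPC P30, a log2FC of −1.10 (SE 0.04, adjusted p = 8.0e-17, edgeR) over the first interval. *Birc5*, the mitotic protein survivin, was at 107 ± 2.22, 53.1 ± 4.36 and 62.6 ± 4.62 CPM. *Tyms*, thymidylate synthase, was at 86.1 ± 0.753, 41.5 ± 1.60 and 80.0 ± 4.18 CPM, and so was low in the middle passage alone. *Mki67*, a marker of cycling cells, was at 108 to 166, 132 to 168 and 84.9 to 157 CPM, overlapping in every pair and called in none. *Top2a*, *Ccne2*, *Mcm6* and *Mcm7* likewise had no call, *Mcm2* was high in NPC P15 and *Mcm4* was a late step up.

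Inhibitors of cyclin-dependent kinases and targets of p53 split by gene. From NPC P15 to NPC P30, 11 of 21 were lower and 2 higher (median log2FC −0.91), and 12 were lower and 2 higher than in NPC P5 (median −0.73), while NPC P15 had 9 higher and 3 lower than NPC P5 (median 0.22). Over all genes 15.6% were lower and 15.0% higher in the first of these contrasts, 17.4% and 16.3% in the second, and 17.1% and 16.6% in the third. *Cdkn1a*, the p53 target p21, was at 306, 313, 334 and 306 CPM in NPC P5, 499, 474, 538 and 498 CPM in NPC P15, and 136, 147, 131 and 150 CPM in NPC P30. Each group stood clear of the others, with the last below the first (log2FC −1.19, SE 0.05, adjusted p = 1.2e-15, edgeR). The p53 targets *Eda2r*, a death receptor, and *Phlda3*, an inhibitor of Akt, had the same order, at 64.2 ± 3.46, 115 ± 10.2 and 25.4 ± 2.92 CPM and at 115 ± 8.87, 144 ± 10.1 and 42.3 ± 3.13 CPM. *Cdkn2b* moved the other way and was low in NPC P15, at 10.6 ± 2.85, 3.12 ± 0.442 and 8.14 ± 2.52 CPM. Its neighbour *Cdkn2a*, whose products restrain growth through Rb and p53, was at 98.9 ± 3.34, 30.8 ± 2.85 and 44.8 ± 0.883 CPM.

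Cholesterol synthesis was lowest in NPC P15. The pathway builds sterols from acetyl-CoA under the factor Srebf2. Of 22 genes listed and tested, 19 were lower and 0 higher in NPC P15 than in NPC P5 by edgeR (median log2FC −0.95), 14 were higher and 0 lower in NPC P30 than in NPC P15 (median 0.26), and 20 were lower and 0 higher in NPC P30 than in NPC P5 (median −0.61). Lower genes made up 17.1% and 17.4% of all genes in the first and last of these, and higher genes 15.0% in the second. *Fdps*, farnesyl diphosphate synthase, was at 243, 269, 261 and 260 CPM in NPC P5, 80.2, 83.6, 89.9 and 87.5 CPM in NPC P15, and 122, 133, 157 and 140 CPM in NPC P30. NPC P30 thus lay between the other passages, as it did for *Lss*, lanosterol synthase (92.0 ± 1.09, 30.9 ± 1.63 and 43.2 ± 3.05 CPM), and *Pmvk*, phosphomevalonate kinase (46.6 ± 3.87, 19.3 ± 2.97 and 33.8 ± 2.26 CPM). Of the 22 genes, 14 were low in NPC P15 against both other passages and 5 were early steps down.

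**Figure D4:**
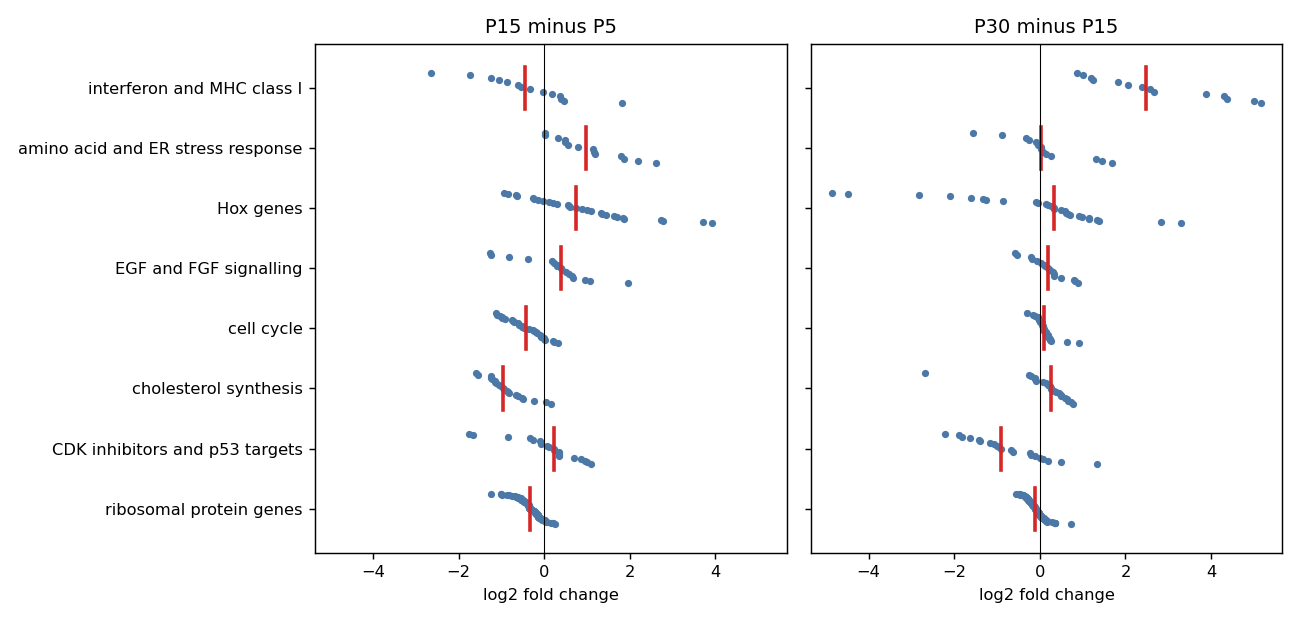
log2 fold change of each tested member of 8 gene lists from NPC P5 to NPC P15 (left) and from NPC P15 to NPC P30 (right), 1 point per gene with a red line at the list's median. All interferon genes lie to the right of 0 over the second interval (median 2.47), and cholesterol genes lie left of 0 over the first (median −0.95).

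Hox genes, which set position along the body axis, rose with passage at the HoxA and HoxB clusters. Of 39 listed, 29 were tested, and 15 were higher and 2 lower in NPC P15 than in NPC P5, 13 higher and 5 lower in NPC P30 than in NPC P15, and 17 higher and 0 lower in NPC P30 than in NPC P5 by edgeR (median log2FC 0.77). Higher genes made up 16.6%, 15.0% and 16.3% of all genes, and lower genes 17.1%, 15.6% and 17.4%. The 8 steady rises were *Hoxa5*, *Hoxa6*, *Hoxa7*, *Hoxa9*, *Hoxa10*, *Hoxb6*, *Hoxb8* and *Hoxb9*. *Hoxa9* was at 0.558, 0.951, 0.845 and 0.922 CPM in NPC P5, 2.74, 2.80, 1.95 and 2.47 CPM in NPC P15, and 26.8, 28.8, 23.7 and 22.4 CPM in NPC P30. The groups did not overlap, and the first interval missed its call only narrowly when passages were fitted in pairs (adjusted p = 0.011, edgeR). *Hoxa10*, its neighbour on chromosome 6, was at 3.22 ± 0.441, 8.07 ± 2.46 and 59.1 ± 4.14 CPM. Genes of the HoxC cluster had another order. *Hoxc8* was at 0.287 ± 0.138, 1.88 ± 0.886 and 0.0807 ± 0.0560 CPM, and *Hoxc4* and *Hoxc5* were high in NPC P15, with a log2FC of 1.85 and then −1.60 and of 1.71 and then −2.09. *Hoxb5* was at 0.598 ± 0.425, 4.07 ± 1.14 and 6.60 ± 1.12 CPM. Neighbouring and antisense genes overlap in these clusters and the counting is not stated to use strand, so their reads cannot always be told apart.

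Receptors and feedback genes of EGF and FGF signalling, the pathway that sustains these cultures, were mostly higher after NPC P5. Of 17 tested, 12 were higher and 2 lower in NPC P15 than in NPC P5 (median log2FC 0.39), and 12 higher and 2 lower in NPC P30 than in NPC P5 (median 0.60). Of all genes, 16.6% were higher and 17.1% lower in the former contrast, and 16.3% and 17.4% in the latter. *Egfr*, the EGF receptor, was at 79.6 to 98.1, 170 to 195 and 162 to 169 CPM. Among feedback inhibitors, *Spry1* was at 131 ± 4.78, 250 ± 12.8 and 325 ± 9.44 CPM, and *Dusp4*, a MAP kinase phosphatase, at 78.9 ± 5.58, 302 ± 7.18 and 213 ± 6.25 CPM. *Hbegf*, an EGF-family ligand, was in contrast at 23.9 ± 1.76, 9.78 ± 1.82 and 11.5 ± 0.741 CPM, and *Fgfr3* at 21.5 ± 1.45, 8.86 ± 3.43 and 17.1 ± 3.39 CPM. Of the immediate early genes, which growth factors induce within minutes, 6 of 10 were lower and 1 higher in NPC P15 than in NPC P5 (17.1% and 16.6% of all genes). Among them *Egr1* was at 240 to 279 CPM, then 103 to 118 and 118 to 138 CPM.

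Neural stem cell genes of the study's panel of canonical markers moved in both directions. All 44 were tested, and 20 were higher and 14 lower in NPC P15 than in NPC P5 (median log2FC 0.10), then 13 higher and 19 lower in NPC P30 than in NPC P15 (median 0.01). Of all genes 16.6% were higher and 17.1% lower in the former contrast, and 15.0% and 15.6% in the latter. The patterns that set NPC P15 apart held 23 of the 44 genes, 14 high and 9 low, against 14.1% of all genes, and steady change held 5, against 3.24%. *Olig1*, a factor of oligodendroglial progenitors, was at 3382 to 3454, 5523 to 5757 and 3183 to 3368 CPM. *Nes*, the intermediate filament nestin, was at 1217 ± 7.54, 1458 ± 119 and 954 ± 58.5 CPM, and *Fabp7*, the brain lipid-binding protein of radial glia, was lowest in NPC P15 at 850 ± 7.95, 525 ± 10.6 and 1037 ± 43.0 CPM. *Nptx1*, a secreted pentraxin, was at 382 ± 12.0 CPM in NPC P5 and at 1818 ± 38.3 and 1712 ± 64.9 CPM later. *Fzd1*, a Wnt receptor, was at 168 to 172, 170 to 180 and 651 to 669 CPM, a late rise (log2FC 1.89, SE 0.04, adjusted p = 9.8e-22, edgeR). *Sox1*, an early neural factor, was at 0.299 to 0.985, 27.8 to 33.8 and 38.2 to 43.7 CPM.

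Glial and neuronal genes were mostly low in level. Of 20 astrocyte genes tested, 11 were higher and 2 lower in NPC P30 than in NPC P15 (median log2FC 0.48) and 10 higher and 2 lower than in NPC P5 (median 0.29), while NPC P15 had 3 higher and 5 lower than NPC P5 (median −0.13). Of all genes 15.0% were higher and 15.6% lower from NPC P15 to NPC P30, and 16.3% and 17.4% from NPC P5 to NPC P30. From NPC P5 to NPC P15 16.6% were higher and 17.1% lower. *Mlc1*, a membrane protein of astrocyte endfeet, was at 97.0 to 105, 82.7 to 91.6 and 293 to 314 CPM, and *Clu*, the chaperone clusterin, at 25.2 ± 1.76, 15.9 ± 1.61 and 65.3 ± 3.86 CPM. The 5 astrocyte markers *Gfap*, *Aqp4*, *S100b*, *Aldh1l1* and *Gja1* summed to 172–188 CPM in NPC P5, 95.8–104 CPM in NPC P15 and 97.6–110 CPM in NPC P30. Most of that sum in NPC P5 was *Gja1*, at 138.5 to 154 CPM, with a log2FC of −1.32 from NPC P5 to NPC P30. Over the same span *Gfap* had a log2FC of 0.51 and *Aldh1l1* one of 0.97, the latter without a call. *Aqp4* and *S100b* were called in no contrast. The 17 oligodendroglial genes tested split into 6 higher and 4 lower in NPC P30 than in NPC P15 and 3 and 3 against NPC P5 (median −0.03), and the 16 neuronal genes into 3 and 3 and into 1 and 4. Of these, *Pdgfra*, the receptor of oligodendrocyte precursors, was at 125 ± 6.06, 61.0 ± 2.31 and 261 ± 8.91 CPM, and *Gap43*, a growth cone protein, at 88.1 ± 3.63, 10.3 ± 2.71 and 30.5 ± 1.78 CPM. *Syt1*, a synaptic vesicle protein, was at 13.9 to 23.1, 13.0 to 15.3 and 0.788 to 2.34 CPM. The part of other cell types in these values was not tested. Among Notch ligands, *Jag1* was at 27.3 ± 2.64, 149 ± 11.0 and 101 ± 6.03 CPM and *Dll3* at 22.6 ± 0.195, 3.38 ± 0.632 and 16.6 ± 2.42 CPM.

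Ribosomal protein genes were lower after NPC P5. Of 81 tested, 58 were lower and 3 higher in NPC P15 than in NPC P5 (median log2FC −0.34) and 72 were lower and 1 higher in NPC P30 than in NPC P5 (median −0.42), where 17.1% and 17.4% of all genes were lower and 16.6% and 16.3% higher. Their share of counts was 3.15–3.23% in NPC P5, 2.46–2.72% in NPC P15 and 2.36–2.57% in NPC P30. *Rps25* was at 381 ± 10.3, 185 ± 13.6 and 234 ± 17.4 CPM, and *Rps13* at 230 ± 13.0, 115 ± 6.36 and 150 ± 8.58 CPM. These genes have many processed copies, so their counts may be shared with them. *Rpl22*, whose tagged product the method pulls down, was at 111–121, 94.1–101 and 93.2–105 CPM, and its call between NPC P5 and NPC P15 (log2FC −0.23) was lost without replicate 1 of NPC P5 (adjusted p = 0.013, edgeR) or replicate 4 of NPC P15 (adjusted p = 0.012).

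Imprinted genes, which are expressed from 1 parental copy, did not move together. Of 30 tested, 5 were higher and 9 lower in NPC P30 than in NPC P5, with a median log2FC of −0.14. The share of higher genes was near the 16.3% of all genes, of which 17.4% were lower. *Mest* was at 2201, 2237, 2188 and 2244 CPM in NPC P5, 1026, 994, 997 and 1048 CPM in NPC P15, and 4052, 4231, 4353 and 4185 CPM in NPC P30. *Peg3* rose steadily at 50.7 ± 4.11, 92.9 ± 5.77 and 200 ± 23.2 CPM. *Xist*, the RNA that coats the inactive X chromosome, was at or below 0.385 CPM in all 12 libraries of this female line and was not tested. This value covers only RNA pulled down with tagged ribosomes. The level of *Xist* in whole cells and the state of the X chromosome were not measured.

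Changes were also unevenly spread over the genome. The median log2FC of the tested genes of a chromosome lay between −0.06 and 0.07 from NPC P5 to NPC P15 for every autosome and X except chromosome 4 (−0.14, 899 genes) and chromosome 6 (0.14, 729 genes). On chromosome 4, 27.0% of genes were lower in NPC P15 than in NPC P5 and 9.45% higher, against 17.1% and 16.6% of all genes. Of 176 windows of 15 Mb that held at least 20 tested genes, 14 had a median beyond 0.2 either way, 6 of them side by side on chromosome 4 (all below 0) and 4 side by side on chromosome 6 (all above 0). From NPC P5 to NPC P30 19 windows passed this cutoff, 5 of them on chromosome 4. From NPC P15 to NPC P30 7 did, 0 of them on chromosome 4. The highest median of that contrast, 0.52, was at 0 to 15 Mb of chromosome 3 (25 genes). The stretch from 30 to 120 Mb of chromosome 4, chosen after its values were seen, held 409 tested genes, of which 169 (41.3%) were lower and 22 higher in NPC P15 than in NPC P5, and 180 (44.0%) lower and 35 higher in NPC P30 than in NPC P5. Its median log2FC was −0.32 and −0.39 in these contrasts and −0.02 from NPC P15 to NPC P30. Against the mean of NPC P5, the median log2 ratio of these genes, with 0.5 CPM added, was between −0.35 and −0.29 in all 8 later libraries and between −0.01 and 0.02 in the NPC P5 libraries. *Cdkn2a* (89274473 to 89294619) and *Cdc20* (118432901 to 118437343) lie in this stretch. On chromosome 6 the median was −0.09 from NPC P15 to NPC P30 and 0.08 from NPC P5 to NPC P30, where 21.9% of its genes were higher against 16.3% of all genes. The 15 genes tested on the mitochondrial genome had a median log2FC of 0.68 and then −0.87. Their share of counts was 0.217–0.242% in NPC P15 against 0.133–0.173% in NPC P5 and 0.150–0.182% in NPC P30. How much of this RNA was bound to tagged ribosomes, rather than carried along in the pull-down, was not tested.

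**Figure D5:**
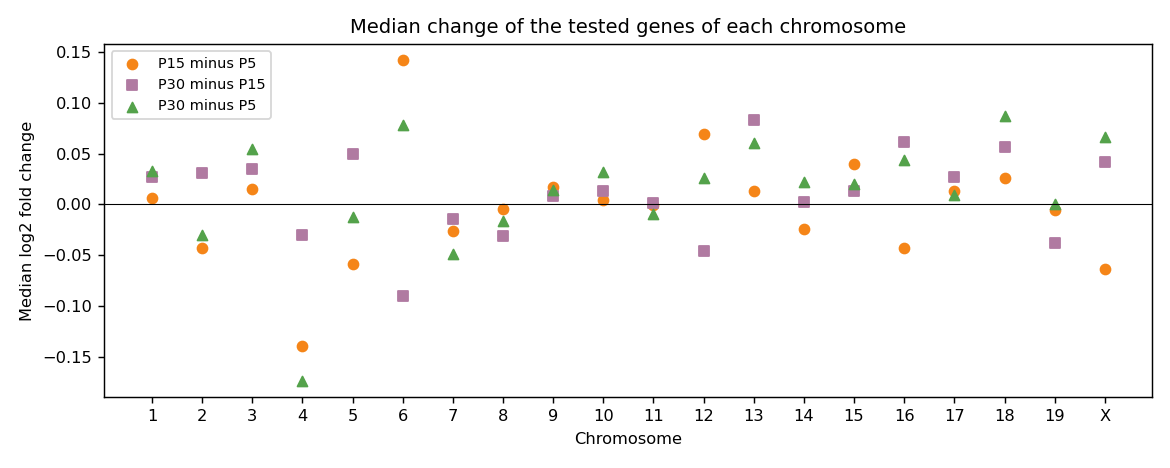
Median log2 fold change of the tested genes of a chromosome for the 3 contrasts between passages, 1 marker per contrast, for the autosomes and X. Among these, chromosome 4 lies lowest in NPC P15 and NPC P30 against NPC P5 (−0.14 and −0.17), and chromosome 6 lies highest in NPC P15 against NPC P5 (0.14).

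Levels at passage 15 in the other derivations, NPC P15 D2 (n = 6) and NPC P15 D3 (n = 4), and in ESC (n = 4) are set beside these values without a test. The D2 libraries summed to 13473855 to 18085106 counts, against 30473157 to 147764968 in the 12 of the first derivation. Each D2 library was labelled with 1 set of reads, where the others were labelled with 2. For D2, culture and the making of the libraries therefore cannot be told apart. *Trap1a* was at 178 to 198 CPM in ESC, at 0 in all NPC P15 D2 libraries and at or below 0.0377 CPM in NPC P15 D3, so among the cultures compared here only ESC and NPC P15 of the first derivation held it above 1 CPM. In ESC *Rhox5* was at 459 to 507 CPM. Its level was 26.3 to 30.4 CPM in the D2 libraries and 3.11 to 3.88 CPM in the D3 libraries. The gene was thus at different levels in the libraries of 3 cultures of the same passage. *P2rx3* was at 14.5 ± 1.63 and 47.8 ± 7.20 CPM in NPC P15 D2 and NPC P15 D3, against 89.3 ± 8.21 CPM in NPC P15. *Cox6a2* was at 4.43 ± 0.648 and 20.3 ± 3.07 CPM in these derivations, against 51.5 ± 2.67 CPM in NPC P15. *Mdk* was at 3.32 ± 0.282 and 0.349 ± 0.0860 CPM in them, and *Qrfpr* at 23.0 ± 1.38 and 17.9 ± 3.53 CPM. *Oasl2* was at 3.51 ± 0.513 and 0.990 ± 0.190 CPM, below every library of the 3 passages. *Hoxa9* was at or below 0.493 CPM in both derivations. *Sox1* was at 28.1 ± 2.43 CPM in NPC P15 D2 and 0.410 ± 0.230 CPM in NPC P15 D3, values that lie near NPC P15 and near NPC P5 of the first derivation in turn.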

How the data were processed

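The authors deposited raw counts per Entrez gene, made by trimming (Trimmomatic), alignment to mm10 (HISAT2) and counting (featureCounts). Versions are not given in the sources used here. All 12 libraries were read from both ends, and 66.5 to 73.8% of counts between 1 and 20 were even, so both reads of a pair may often have been counted. Gene symbols came from RefSeq (GRCm38.p6), which matched 25275 of 27179 genes. CPM is a gene's count scaled to the library's total.

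The members and gene lists were chosen with earlier results of these data known. The main fit was edgeR 4.0.16 (R 4.3.3), with TMM scaling, filterByExpr, group as the only factor, the 12 libraries in 1 fit, glmQLFTest and Benjamini-Hochberg adjustment per contrast. A DEG had an adjusted p below 0.01. Patterns were sorted from the 3 contrasts and the 95% intervals. A steady gene that also met a step rule counted as steady. The scripts were tested on simulated data.

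Named genes were the 5 of each pattern with the largest absolute log2FC among those with a symbol and at least 10 CPM in a passage, up to 4 DEGs per list with at least 1 CPM, and 10 defining markers. *Irf9*, *Cdkn2a*, *Ifnb1* and genes given by log2FC alone to complete a list were named after their values were seen. Replicates within a passage differed beyond sampling noise (chi-square per gene 18.9 to 63.2 for 18 pairs), and none was a copy. Alternatives were DESeq2 1.42.0 and its size factors, other filters, other sample sets, the replicate block, a fold threshold and leaving out each library. Other samples of the series were not used here except ESC and derivations 2 and 3. Some items are not reported here.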

Additional observations from a re-analysis of the deposited data

Results flagged for a closer look

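Among the 128 named genes, 384 groups of 4 libraries were looked at, and in 20 of them 1 library lay apart from the other 3 by Dixon's 95% criterion, where chance flags about 1 in 20 groups. In NPC P5 the library apart was high for *Boc* (20.8 CPM against 17.1 to 17.7), *Gap43* (93.5 against 85.8 to 86.9), *Gja1* (154 against 138 to 141) and *Mki67* (166 against 108 to 118). It was low in NPC P5 for *Cxcr4* (15.2 CPM against 18.9 to 19.6), *Mdk* (39.4 against 41.1 to 41.5), *Nrarp* (26.3 against 30.0 to 30.2), *Pcdhga3* (1.06 against 1.52 to 1.60) and *Rcan2* (42.0 against 50.9 to 52.5). In NPC P15 it was high for *Gpr17* (0.5004 CPM against 0.108 to 0.168) and *P2rx3* (102 against 85.0 to 85.3), and low for *Jag1* (132 against 152 to 155) and *Vim* (1074 against 1109 to 1113). In NPC P30 it was high for *Eda2r* (29.8 CPM against 23.7 to 24.3), *Insm1* (6.12 against 2.41 to 3.02), *Pax6* (43.9 against 38.1 to 38.7), *Psrc1* (26.6 against 21.1 to 21.8) and *Rpl39* (5.48 against 4.55 to 4.67), and low for *Olig2* (1039 against 1130 to 1140) and *Pdgfra* (248 against 264 to 266).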

How the results depend on the processing

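Requiring an absolute log2FC of at least 1 left 992, 1089 and 1068 DEGs in the 3 contrasts, 31 steady rises, 6 steady falls, 63 and 29 early steps up and down, 81 and 26 late steps up and down, 92 genes high and 234 low in NPC P15, and 12 steady genes with differing rates. Under the other alternatives run, each of these 12 counts stayed within 1.5 times its value. Leaving out 1 library gave 4570 to 5172, 4089 to 4635 and 4524 to 5083 DEGs, 244 to 275 steady rises, 165 to 201 steady falls, 611 to 694 and 789 to 876 early steps up and down, 392 to 448 and 528 to 604 late steps, 890 to 1035 genes high and 929 to 992 low in NPC P15, and 117 to 149 differing rates. At least 71.6% of the genes of a pattern kept it under each of these alternatives other than the fold threshold. Replicate numbers did not pair the libraries (r of deviations −0.0249 to 0.129, over 0.1 in 1 of 12 pairs), and with the replicate block there were 5072, 4604 and 5060 DEGs. The median log2FC of neuronal genes from NPC P5 to NPC P30 (−0.26) ran from −0.49 to 0.016 when 1 library was left out, changing sign without replicate 2 of NPC P5, and the cause was not tested. No named gene changed direction, while 103 gene values under an alternative lost a call and 45 gained one. The rate per passage was not run in pairwise fits. Depth limits genes near 1 CPM.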
